A study of Drosophila melanogaster with 3 samples.

Results

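Of the 2846 peaks in the Mod(mdg4)2.2 list from Kc167 cells, 505 had no base in common with any of the 7621 peaks of the list for the BTB domain, and these 505 regions are described here. They were chosen by that absence of overlap alone, so their number, their places on the chromosomes, and their scores and widths in the 2.2 list follow in part from the choice and are given as description, without a test. The 3 lists together hold 13819 peaks, and the third, for L(3)mbt, has 3352. Kc167 is a cell line derived from Drosophila embryos, and the labels name no genotype or treatment that differed between the libraries. Chromatin was precipitated with an antibody against the 2.2 isoform of Mod(mdg4), an antibody against the BTB domain that is shared by all its isoforms, or an antibody against L(3)mbt, with 1 library each. The comparison of interest within the 2.2 list is with the 2341 peaks that do overlap a BTB peak.

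Mod(mdg4) is one gene with many spliced and trans-spliced products. All of them carry the same N-terminal BTB domain, a module through which such proteins bind one another, and they differ in their C-terminal ends. The 2.2 product is the partner of the zinc-finger protein Su(Hw) in the gypsy insulator, an element that can block an enhancer from acting on a promoter. L(3)mbt has MBT repeats, which bind methylated lysines of histone tails, and its loss causes brain tumours in larvae. Because the 2.2 protein itself carries the BTB domain, each of the 505 regions is a place where the isoform antibody gave a peak and the antibody against all isoforms gave none.

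Names such as 2RHet and Uextra belong to release 5 of the fly genome, in which U and Uextra collect the scaffolds that could not be assigned to a chromosome, much of it repeat-rich heterochromatin. Uextra strings many small scaffolds together. Neither DNA sequence nor gene positions of that release were analysed here, so the regions are given by position, counted from 1. The peak lists hold no reads, so sequencing depth is unknown, BTB signal below the caller's threshold cannot be seen, and no level of binding is compared between libraries. With 1 library per antibody there is no replicate. Intervals in the text are 95% intervals over peaks (Wilson for shares, Newcombe for differences between shares, order statistics for medians). They cover counting error only, and they treat neighbouring peaks as independent.

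Most of the 2.2 peaks without BTB lay in unplaced sequence. Uextra held 276 of the 505 (54.7%) and U held 28. The 5 long arms together held 181, with 49 on 3L, 39 on X, 38 on 3R, 28 on 2R and 27 on 2L. The remaining 20 were spread over 2RHet (7), 3LHet (1), 3RHet (9), XHet (1), YHet (1) and chromosome 4 (1). As a share of the 2.2 peaks on each sequence, those without BTB made up 50.5% on Uextra and 49.1% on U, but between 7.02% on 2R and 10.4% on 3L for the long arms. Per Mb of sequence spanned by peaks there were 9.52 on Uextra, 2.82 on U, and between 1.18 (2L) and 2.00 (3L) on the long arms.

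**Figure D1:**
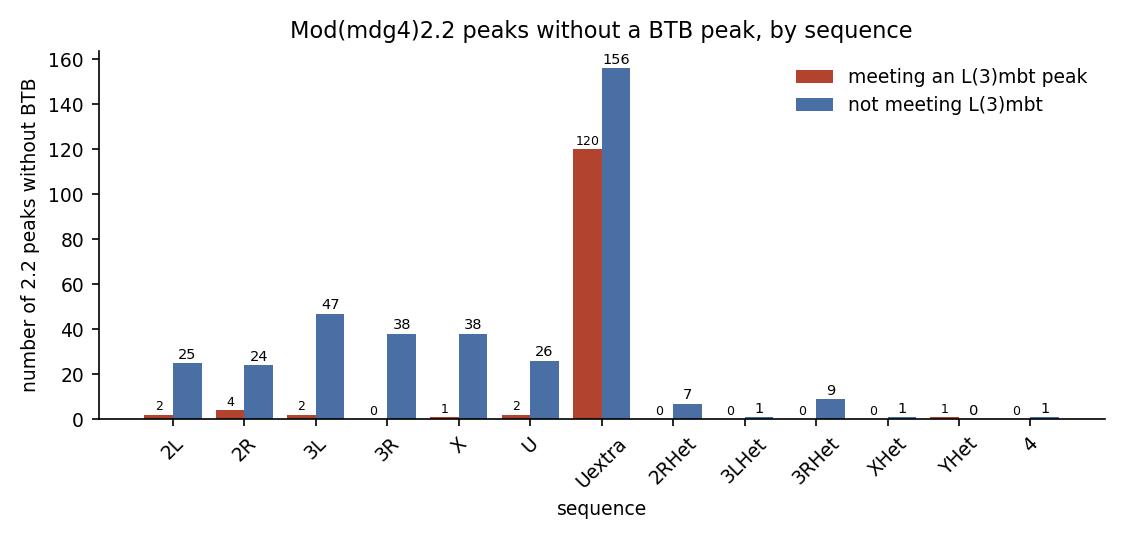
Number of Mod(mdg4)2.2 peaks without a BTB peak (y axis) on each sequence (x axis), split into peaks that meet an L(3)mbt peak by at least 1 bp and peaks that do not. Uextra holds 120 with and 156 without L(3)mbt, whereas the long arms hold 0 to 4 with L(3)mbt each.

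The regions without BTB were among the weaker peaks of the 2.2 list. The score is the peak caller's own value and runs from 100.02 upward in this list, with many peaks tied at 3100. None of the 505 reached 3100, against 729 of the 2341 peaks with BTB. On the long arms the median score was 172 (interquartile range 122 to 248) without BTB and 1361 (359 to 3100) with BTB, and 62.4% and 13.4% of the peaks scored below 200. On U and Uextra, where most 2.2 peaks are weak, the 2 classes stood closer, with medians of 149 (120 to 243) without BTB and 181 (134 to 268) with BTB. The 20 regions in placed heterochromatin and on chromosome 4 had a median score of 144 and a highest score of 331.

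A few regions without BTB on the long arms stood above this level. The highest score was 766, at 2L:12560325-12564243, a peak of 3919 bp whose nearest BTB peak was 3991 bp away. It was followed by 3L:5269773-5271576 at 724, 3L:6240251-6241544 at 673, 3L:7786644-7794321 at 634 and 2L:9975994-9979702 at 568. None of these 5 met L(3)mbt, and their nearest L(3)mbt peaks were between 7334 and 27816 bp away. In all, 7 of the 181 long-arm regions scored 500 or more. Several were wide: 3L:7786644-7794321 spans 7678 bp. Peaks of at least 3000 bp made up 18 of the 181 regions without BTB (9.94%) and 65 of the 2014 long-arm peaks with BTB (3.23%), although a wide peak meets BTB more easily. L(3)mbt met 0 of the 18 wide regions without BTB (interval up to 17.6%) and 5 of the 65 wide peaks with BTB (7.69%), a difference of -7.69 points (-16.8 to 10.4) within counting error. The median widths went the other way, at 1057 bp without BTB and 1214 bp with BTB.

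The distance to BTB, which the rule holds above 0, varied widely among the regions. The gap from the edge of a region to the nearest BTB peak had a median of 7308 bp on U and Uextra (interquartile range 3289 to 18231 bp) and 6147 bp on the long arms (1994 to 14424 bp). It was under 1000 bp for 24 of 304 regions in unplaced sequence (7.89%) and for 29 of 181 on the long arms (16.0%), and under 100 bp for 1 region in each. Just inside the rule on the long arms lay 3L:9366357-9367263, with a gap of 98 bp and a score of 350, 3R:26507201-26512055, with a gap of 180 bp and a score of 187, and 2R:3375857-3376904, with a gap of 197 bp and a score of 130. Just outside it lay 3R:15051042-15052063, which shared 12 bp with a BTB peak and scored 164, X:3570596-3571590, which shared 72 bp and scored 163, and 2R:18889132-18890037, which shared 279 bp and scored 103. Apart from 3L:9366357-9367263, these listed peaks scored below 200. The score of that region was above the upper quartile of 248 for long-arm regions without BTB. At the other extreme, 2L:16945461-16946493 lay 82411 bp from any BTB peak, X:21675206-21676368 lay 73266 bp away and 3R:4398206-4399474 lay 54396 bp away, at scores of 196, 119 and 144. In unplaced sequence the regions that met L(3)mbt lay nearer to BTB peaks, at a median of 5675 bp (3840 to 6748), than those that did not, at 10337 bp (7717 to 12368). Within each stretch of Uextra the intervals overlapped. The medians were 3812 bp (2683 to 5722) with and 6518 bp (3448 to 15016) without L(3)mbt beyond 25 Mb, and 9884 bp (5792 to 14315) with and 8791 bp (7114 to 12317) without it up to 25 Mb. Distances on Uextra run across scaffold joins and are not chromosomal distances.

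**Figure D2:**
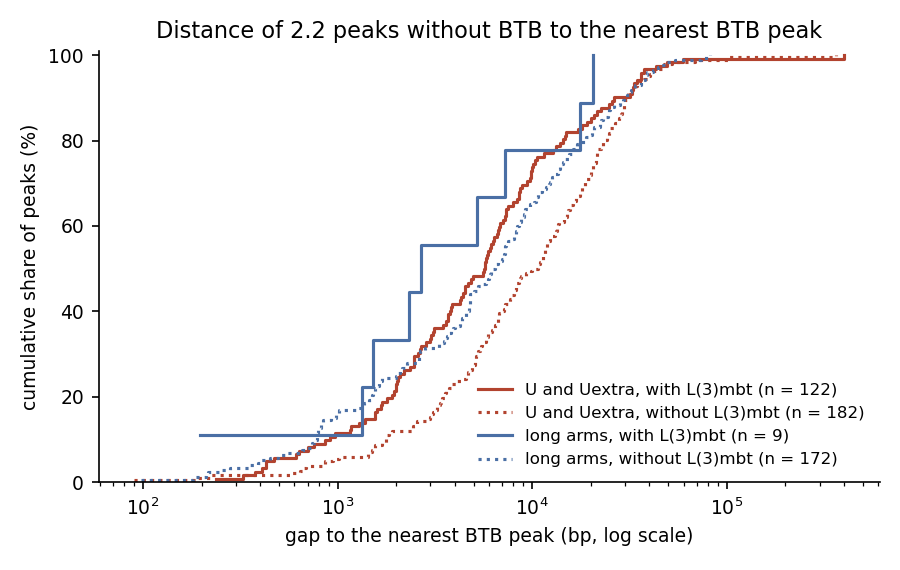
Cumulative share of the 2.2 peaks without BTB (y axis, percent) by the gap to the nearest BTB peak (x axis, bp, log scale), for U with Uextra and for the long arms, with and without L(3)mbt. In unplaced sequence the regions with L(3)mbt lie left of those without it, with medians of 5675 and 10337 bp.

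L(3)mbt, which had no part in the choice of the regions, met 132 of the 505 (26.1%, 22.5 to 30.1%), against 467 of the 2341 2.2 peaks with BTB (19.9%, 18.4 to 21.6%) and 21.0% of the whole 2.2 list. This pooled figure joins 2 opposite patterns. On U and Uextra, L(3)mbt met 122 of 304 regions without BTB (40.1%, 34.8 to 45.7%) and 78 of 300 peaks with BTB (26.0%, 21.4 to 31.2%), and 33.1% of all 2.2 peaks there. The difference of 14.1 percentage points had an interval of 6.64 to 21.4. On the long arms it met 9 of 181 regions without BTB (4.97%, 2.64 to 9.18%) and 386 of 2014 peaks with BTB (19.2%, 17.5 to 20.9%), and 18.0% of all 2.2 peaks there. That difference was -14.2 points (-17.1 to -9.67). Its size depended on the setting. It was -4.83 points with centres within 200 bp and -7.63 points with peaks set to 400 bp. With the upper 50% of each list it was -4.13 points (-6.67 to 0.41), within counting error. These settings also change which 2.2 peaks count as lacking BTB. The upper 50% leaves out weaker BTB peaks, so 2.2 peaks that meet only those are counted. It gave 146 regions with a median score of 740, whereas 7 of the 181 regions scored 500 or more. In placed heterochromatin and on chromosome 4, 1 of 20 regions without BTB and 3 of 27 peaks with BTB met L(3)mbt, too few to compare.

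The L(3)mbt peaks themselves overlapped BTB to different extents in unplaced and placed sequence. Of the L(3)mbt peaks on U and Uextra, 135 of 433 met BTB (31.2%, 27.0 to 35.7%), and on the long arms 1915 of 2890 did (66.3%, 64.5 to 68.0%). The part that this overlap plays in the L(3)mbt shares of 2.2 peaks chosen for lacking BTB was not tested. Seen from the L(3)mbt list, 121 of its 433 peaks in unplaced sequence lay at 2.2 peaks without BTB (27.9%), and 9 of 2890 on the long arms did (0.311%).

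Unplaced sequence and the long arms also differed when peaks of like 2.2 score were set side by side. On U and Uextra, L(3)mbt met 24.0% of 154 regions without BTB scoring 100 to 150 and 22.3% of 112 peaks with BTB, a difference of 1.70 points (-8.78 to 11.6). The share without BTB then went up with the score. It was 53.7% of 41 regions at 200 to 300, against 28.0% of 75 peaks with BTB, and 26 of 35 regions at 300 to 500, against 16 of 32 peaks with BTB. All 23 regions without BTB scoring 500 or more met L(3)mbt (85.7 to 100%), and 7 of 27 peaks with BTB did (25.9%, 13.2 to 44.7%). On the long arms no band went this way. L(3)mbt met 5.13% of 78 regions without BTB scoring 100 to 150 and 43.1% of 144 peaks with BTB, a difference of -37.9 points (-46.7 to -27.2). Of the 7 long-arm regions at 500 or more, 0 met L(3)mbt (interval up to 35.4%), against 12.9% of 1377 peaks with BTB, a difference within counting error (-14.8 to 22.5).

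**Figure D3:**
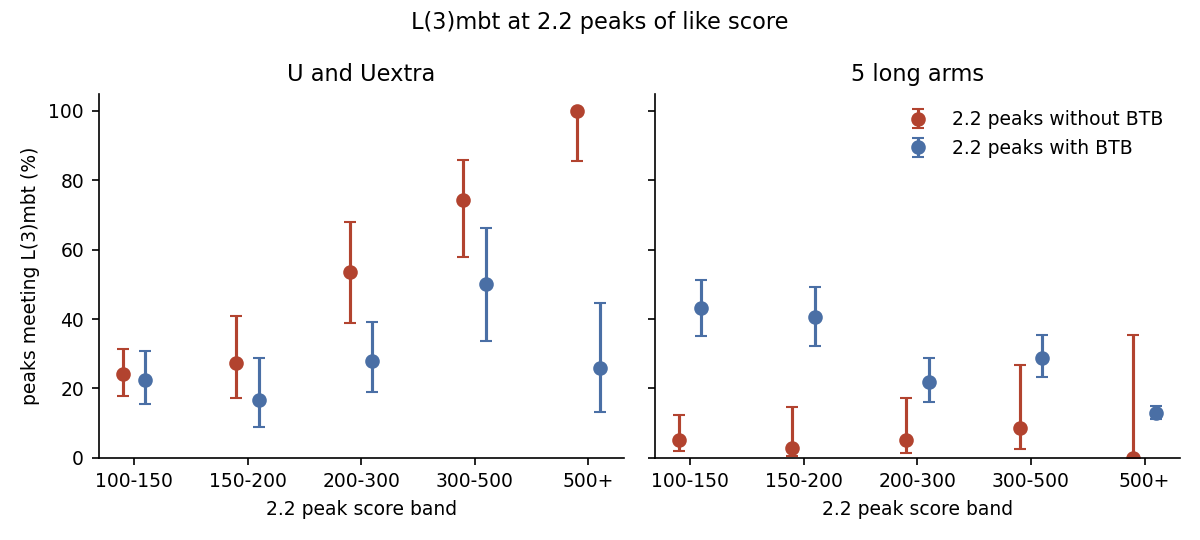
Share of 2.2 peaks that meet L(3)mbt (y axis, percent, with 95% Wilson intervals) by band of the 2.2 score (x axis), for U with Uextra and for the 5 long arms. In unplaced sequence the points without BTB run from 24.0% in the lowest band to 100% in the highest, and on the long arms they stay below 9%. The highest band has no upper limit, and peaks with BTB reach higher scores in it than those without.

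The shares were also set out by width. Among unplaced 2.2 peaks under 800 bp, L(3)mbt met 36 of 48 without BTB and 20 of 26 with BTB, a difference of -1.92 points (-20.2 to 19.6). Between 800 and 1200 bp, which holds most unplaced peaks, the shares were 33.5% of 182 and 19.5% of 169, a difference of 14.0 points (4.74 to 22.9). On the long arms at 800 to 1200 bp they were 5.08% of 118 without BTB and 15.4% of 972 with BTB, a difference of -10.3 points (-14.0 to -4.39).

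Within Uextra, the regions with L(3)mbt were gathered at its far end. In the stretch beyond 25 Mb, L(3)mbt met 80 of 95 regions without BTB (84.2%, 75.6 to 90.2%) and 28 of 54 peaks with BTB (51.9%, 38.9 to 64.6%), a difference of 32.4 points (17.0 to 46.7). In the sequence up to 25 Mb it met 40 of 181 (22.1%, 16.7 to 28.7%) and 45 of 217 (20.7%, 15.9 to 26.6%), a difference of 1.36 points (-6.64 to 9.55) that was not larger than counting error. The interval from 28 to 29 Mb alone held 62 of the regions without BTB, 55 of them with L(3)mbt. The L(3)mbt list was itself dense there: it had 215 peaks beyond 25 Mb, against 23 to 50 in each of the 5 preceding stretches of 5 Mb. The BTB list had 186 peaks beyond 25 Mb and 169 to 250 in the others, although peaks on Uextra end at 29.0 Mb, so the last stretch is shorter. Both lists were dense at 28 to 29 Mb. BTB had 80 peaks there, against 26 to 44 in each Mb from 20 to 28 Mb, and L(3)mbt had 152, against 6 to 30. The part that the density of L(3)mbt and BTB peaks plays in the shares at the far end was not tested. On U, which is a separate sequence, 2 of 28 regions without BTB (7.14%) and 5 of 29 peaks with BTB (17.2%) met L(3)mbt, a difference of -10.1 points (-28.2 to 8.16) within counting error, so the positive difference for U with Uextra was not seen on U.

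**Figure D4:**
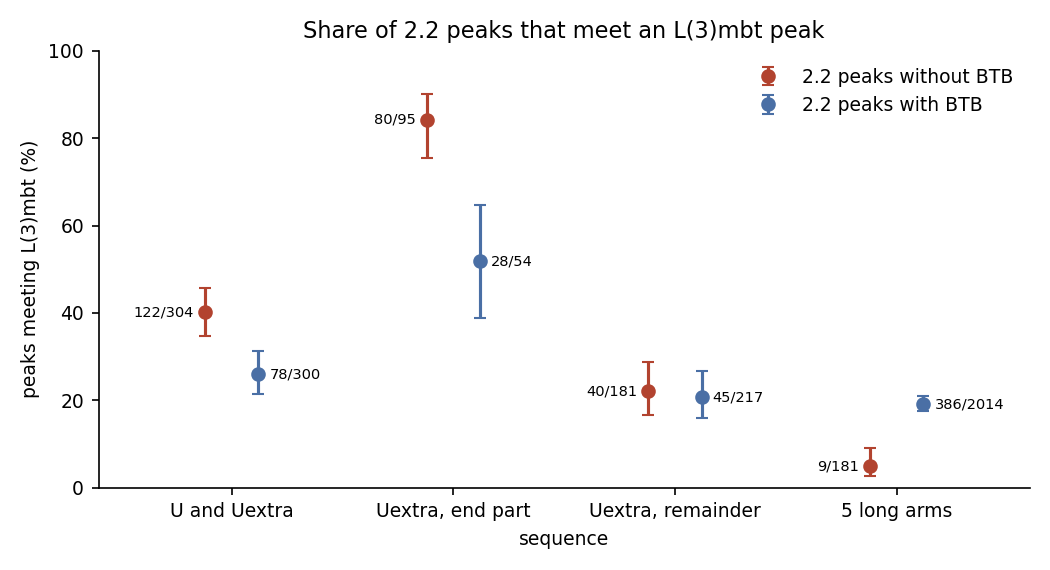
Share of 2.2 peaks that meet an L(3)mbt peak (y axis, percent, with 95% Wilson intervals and counts) without and with BTB, for U with Uextra, for the end part of Uextra (beyond 25 Mb), for the remainder of Uextra and for the 5 long arms (x axis). The share without BTB is above that with BTB in the end part of Uextra, at 84.2% and 51.9%, and below it on the long arms, at 4.97% and 19.2%.

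Within bands of score the stretches of Uextra compared as follows. The band of 500 or more again has no upper limit. Its scores ran to 1148 without BTB and 3210 with BTB up to 25 Mb, and to 1037 and 3100 beyond 25 Mb. Up to 25 Mb, L(3)mbt met 16 of 140 regions without BTB scoring below 200 (11.4%, 7.16 to 17.8%) and 21 of 124 peaks with BTB (16.9%), a difference of -5.51 points (-14.2 to 2.93). At 200 to 500 it met 15 of 32 (46.9%) and 19 of 75 (25.3%), a difference of 21.5 points (2.19 to 40.2), and at 500 or more 9 of 9 and 5 of 18, a difference of 72.2 points (34.4 to 87.5). Beyond 25 Mb it met regions below 200 in 35 of 46 cases without BTB (76.1%) and in 11 of 27 with BTB (40.7%), a difference of 35.3 points (12.1 to 54.4). At 200 to 500 it met 33 of 37 without BTB and 15 of 22 with BTB there, a difference of 21.0 points (0.22 to 42.9), and at 500 or more 12 of 12 and 2 of 5, a difference of 60.0 points (15.8 to 88.2).

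Where a 2.2 peak without BTB met L(3)mbt in unplaced sequence, the centres of the 122 pairs lay a median of 24 bp apart (17 to 43), with a largest distance of 2721.5 bp, and 63.1% were within 50 bp (54.3 to 71.2%). In 62 of the 122 the L(3)mbt peak covered the whole 2.2 peak, and in 60 both edges agreed within 50 bp (49.2%, 40.5 to 57.9%). The 78 unplaced 2.2 peaks with BTB and L(3)mbt had a median of 31.5 bp (19 to 38.5) between 2.2 and L(3)mbt centres, with 67.9% within 50 bp (57.0 to 77.3%) and both edges within 50 bp in 33 of 78 (42.3%, 32.0 to 53.4%), so closeness was not particular to the regions without BTB. The long-arm pairs were looser. The 9 without BTB had a median of 642.5 bp (28 to 1344) and the 386 with BTB 132.75 bp (107.5 to 162.5), and both edges agreed within 50 bp in 1 of 9 and in 23 of 386 (5.96%, 4.00 to 8.78%).

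L(3)mbt peaks at these unplaced regions scored high in their own list. The 121 L(3)mbt peaks that met 2.2 without BTB on U and Uextra had a median L(3)mbt score of 771 (461 to 990), at percentile 78.6 of that list. The 78 at peaks of 2.2 and BTB had a median of 232 (170 to 279), the 57 at BTB without 2.2 had 159 (140 to 189), and the 177 that met neither had 172 (159 to 202). A score of 500 or more was reached by 58.7% of the 121 and 20.5% of the 78, a difference of 38.2 points (24.6 to 49.4), and by 9.60% of the 177 with neither, a difference of 49.1 points (38.7 to 58.2). This held up to 25 Mb on Uextra, with 55.0% against 11.1% for 2.2 with BTB (difference 43.9 points, 24.3 to 59.5), while beyond 25 Mb the shares were 59.5% and 39.3% (difference 20.2 points, -1.16 to 38.9), within counting error. Of the 51 L(3)mbt peaks at or above 3100, 4 lay in unplaced sequence, and each of the 4 was at a 2.2 peak without BTB. On the long arms the 7 L(3)mbt peaks that met only such a 2.2 peak had a median score of 158 (107 to 401).

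The scores in the 2.2 and L(3)mbt lists were also set against each other. Across the 122 unplaced pairs without BTB, Spearman's rho between the 2.2 score and the L(3)mbt score was 0.79, with Pearson's r of 0.79 on log10 scores. Across the 78 unplaced pairs with BTB, rho was 0.28 and r was 0.20. Within Uextra, rho without BTB was 0.71 over 80 pairs beyond 25 Mb and 0.86 over 40 pairs up to 25 Mb. These are descriptions across peaks of 2 libraries, and the points share the local sequence and, if the authors used a common control for all lists, its reads. Across the 122 pairs, L(3)mbt score followed 2.2 peak width less closely, with rho of 0.35. This order was not seen across the 78 pairs with BTB, where rho with width was 0.28. Over their 28 pairs beyond 25 Mb, rho was 0.75 with width and 0.19 between scores. Over their 45 pairs up to 25 Mb, it was -0.04 and 0.30. On the long arms rho between scores was -0.07 over 9 pairs without BTB and -0.13 over 386 with BTB.

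**Figure D5:**
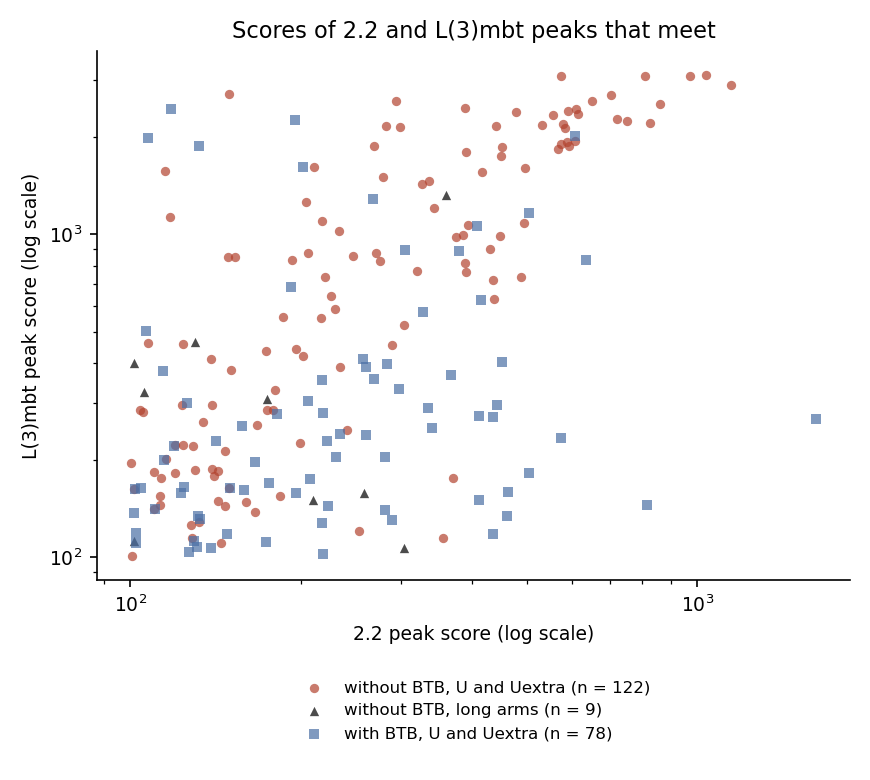
L(3)mbt peak score (y axis, log scale) against 2.2 peak score (x axis, log scale) for 2.2 peaks that meet L(3)mbt, 1 point per 2.2 peak, without BTB in U and Uextra, without BTB on the long arms, and with BTB in U and Uextra. The 122 points without BTB in unplaced sequence rise together (rho 0.79), and the 78 with BTB are more scattered (rho 0.28).

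The strongest of all the regions without BTB were of this kind. Uextra:24985032-24986024 scored 1148 for 2.2 and 2891 for L(3)mbt, and its nearest BTB peak was 14879 bp away. Uextra:26844179-26845113 scored 1037 for 2.2, its L(3)mbt peak scored 3119 with a centre 20.5 bp away, and the gap to BTB was 6618 bp. Uextra:24836057-24836855 scored 969 for 2.2 and 3100 for L(3)mbt, and Uextra:12381594-12382394 scored 858 and 2533. Uextra:28764083-28765025, at 824 and 2208, had a BTB peak only 238 bp away. All 5 were between 799 and 993 bp wide, and the 5 highest-scoring long-arm regions were between 1294 and 7678 bp wide. The strongest unplaced regions without L(3)mbt were much lower, at U:2960085-2962488 with 478, Uextra:17025587-17026509 with 414 and Uextra:28739393-28740843 with 344. The median 2.2 score of unplaced regions without BTB was 234 (196 to 298) with L(3)mbt and 136 (128 to 141) without it.

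The 9 long-arm regions with L(3)mbt but no BTB were a mixed set. At 3 of them nearly all or all of the 2.2 peak lay within L(3)mbt. 2L:21531686-21533902 shared 2204 of its 2217 bp and scored 258 for 2.2 and 158 for L(3)mbt, X:2088036-2088994 shared 957 of 959 bp at scores of 102 and 112, and 3L:22096525-22098087 shared all 1563 bp at 210.1 and 151, with centres 409 bp apart. At 3 others, all on 2R, the overlap was small. They were 2R:3375857-3376904 with 72 bp shared, 2R:13736748-13737718 with 214 bp and 2R:14061789-14062857 with 268 bp, whose L(3)mbt peaks had centres 1181 to 1514.5 bp away. The last of these met the strongest L(3)mbt peak of the set, at 1324, with a 2.2 score of 360. The remaining 3 were 2R:13683309-13684268, 2L:21479064-21480221 and 3L:19889121-19891185, which shared 855 of 960, 1021 of 1158 and 1568 of 2065 bp. Both 2L regions lay within 2 Mb of the highest peak position on that arm, the side of its centromere. Of all long-arm regions without BTB, 14 of 181 lay within 2 Mb of the centromere side of their arm (7.73%). Among peaks with BTB, 88 of 2014 did (4.37%), and no interval was computed. The arms differed: on X the counts were 8 of 39 without and 20 of 393 with BTB, and on 2L 3 of 27 and 15 of 333. For 2R, 3L and 3R the share without BTB was the lower, at 0%, 4.08% and 2.63% against 2.70%, 4.72% and 4.67%.

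Most regions on the long arms stood singly, and those in unplaced sequence less so. Regions were also denser on Uextra, at 9.52 per Mb against 1.18 to 2.00 on the long arms. The part that density plays in the grouping was not tested, and neighbours on Uextra may lie on different scaffolds. Taking regions as neighbours when under 5 kb apart, 171 of the 181 on the long arms had no neighbour and the other 10 formed 5 pairs, the first in order being at 2L:6992841-6997315. In unplaced sequence 62 of 304 fell into 27 groups. The largest held 4 regions each, at Uextra:28601832-28613493, where all 4 met L(3)mbt, and at Uextra:28729675-28740843, where 3 did. Among 2.2 peaks that did not meet L(3)mbt, the gap to an L(3)mbt peak was under 1000 bp for 2 of 182 without BTB (1.10%) and 5 of 222 with BTB (2.25%) in unplaced sequence. On the long arms it was under 1000 bp for 9 of 172 without BTB (5.23%) and 48 of 1628 with BTB (2.95%).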

How the data were processed

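Chromatin immunoprecipitation with sequencing was carried out in Kc167 cells with 3 antibodies, 1 library each. Per the submitters' processing notes, Bowtie 0.12.5 was used for alignment. For each library there is 1 deposited list of peaks, each with a score, and peak names follow the pattern of MACS output. Not given in the sources used here are the caller's version and settings, the control for each list, and the genome build. The control reads, from an earlier study per the series' design text, were not analysed here. Deposited scores were not compared in size between lists, only ranked or described within a list and, for peaks that met, correlated across the 2.2 and L(3)mbt lists. Values at or above 3100 were treated as tied for percentiles and for the correlations between scores, but not for the correlation with width.

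Peaks met when they shared at least 1 bp. Shares were compared as differences with Newcombe intervals. No p-value was computed, because 1 library per antibody leaves no replicates and peaks are not replicates. The overlap code was tested on simulated lists and against bedtools. The end of the last peak in any list stood for the length of a sequence. Named regions are the 5 highest scores and all with L(3)mbt on the long arms, the 5 highest with and 3 highest without L(3)mbt in unplaced sequence, the 3 nearest to and 3 farthest from BTB, the 3 smallest overlaps, and the longest runs. Alternatives were a stricter overlap, centres within 200 bp, peaks set to 400 bp, regions over 1 kb from BTB, higher score limits, the upper 50% of each list, and Uextra alone. The regions and the rules were chosen with earlier results of these data known, and the split of Uextra at 25 Mb and the bands of score and width were added after seeing the data. Computation used Python 3.11.15, numpy 2.4.6, pandas 2.3.3, scipy 1.17.1 and matplotlib 3.10.9.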

Additional observations from a re-analysis of the deposited data

Results flagged for a closer look

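The difference in L(3)mbt share between 2.2 peaks without and with BTB had opposite signs, at 14.1 percentage points on U and Uextra and -14.2 on the long arms. The differences lay 28.3 points apart (interval 19.6 to 36.2, counting error only, 1 library per antibody). The long-arm difference was -4.13 points (-6.67 to 0.41) with the upper 50% of each list, within counting error. That setting leaves out weaker BTB peaks, so 2.2 peaks that meet only those count as lacking BTB. The share of L(3)mbt peaks that meet BTB also differed, at 31.2% for U with Uextra and 66.3% for the long arms, and its part in the result was not tested.

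Within Uextra the same difference was 32.4 points beyond 25 Mb and 1.36 points up to 25 Mb, 31.0 points apart (13.6 to 47.4). This split was made after the positions of the regions had been seen.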

How the results depend on the processing

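No paired analysis was possible because each antibody has 1 library and no result comes from a test across libraries. No difference in L(3)mbt share changed sign under any alternative run. The values that left the interval of the reported value, or 1.5 times a count, follow, and some must, such as the median score under a minimum score. With centres within 200 bp, the long arms held 510 regions without BTB, the difference in L(3)mbt share was -4.83 points, the median score 386 and the median distance to BTB 0 bp, since peaks off centre but overlapping then count as lacking BTB. In unplaced sequence that distance was 5849 bp. With peaks set to 400 bp the long arms gave 304 regions, -7.63 points, a median score of 243 and 2141 bp. Regions over 1 kb from BTB on the long arms lay a median of 7923 bp away. With 2.2 scores of at least 200 there were 68 regions on the long arms, with a median score of 282, and 99 in unplaced sequence, with a median score of 337, an L(3)mbt share of 71.7% and a difference of 38.9 points. With the upper 50% of each list the long arms gave -4.13 points (-6.67 to 0.41), a median score of 740.0 and 9476 bp. This difference was then within counting error. Weaker BTB peaks are left out in this setting, so 2.2 peaks that meet only those count as lacking BTB. Unplaced sequence gave 30 regions in the same setting, with a share of 80.0%, 74.1 points, a median score of 614 and 55754 bp. With L(3)mbt scores of at least 200 the unplaced share was 31.6%. Beyond 25 Mb of Uextra there were 95 regions, a share of 84.2% and 32.4 points, and up to 25 Mb 181 regions, 22.1% and 1.36 points. The cause of these changes was not tested where the construction of the alternative does not give it. Depth is unknown, so weak BTB signal at these regions could not be assessed.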
